A study of Mus musculus with 2 samples.

Results

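Short contacts are here the enriched pixels whose anchors lie less than 50 kb apart on 1 chromosome. A pixel is a pair of 5 kb bins, its anchors, whose contact count stood above the local surroundings, and its span is the distance between the starts of the bins. Of 5811 listed pixels in wild-type mice (WT) 652 were short, and of 4872 in mice lacking Tet2 and Tet3 (DKO) 707, so that 1359 of 10683 entries belong to the set. They cover 1160 distinct pairs of bins. All members had spans of 35, 40 or 45 kb, since neither list held a shorter pixel.

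The contacts were measured by Hi-C, which joins neighbouring DNA ends in crosslinked nuclei and sequences the junctions. The cells were hair matrix keratinocytes, the proliferating cells of the hair bulb that build the shaft, sorted from mice at postnatal day 4.5. There was 1 library per genotype: WT, for which the labels name no transgene, and Tet2/Tet3 DKO with Krt14-Cre, a recombinase under a promoter of basal keratinocytes. TET2 and TET3 oxidise 5-methylcytosine, and the comparison asks how contacts differ without them. Whether cells of several animals were pooled is not given in the sources used here. With 1 library each there is no replicate error and no test, and genotype cannot be told apart from any other way in which the samples differ. Intervals below are exact 95% intervals for counting error only, and they treat pixels as independent, which neighbouring pixels are not.

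As background, cohesin extrudes chromatin loops until it is held by CTCF at sites that face each other, and anchors of such loops often lie at boundaries of domains. Promoters and enhancers also meet over short distances, within or between neighbouring genes, and active promoters in gene-rich chromatin lie close to one another. At short range random contacts are frequent, so a pixel has to stand out from a high local expectation to be listed.

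Some short pixels joined 2 transcription starts, 1 at each anchor, and 9 such pixels were listed in both libraries. For the 3 with the highest mean enrichment, promoters that lie inside the anchors are shown here. Contacts are resolved to bins of 5 kb, so which bases within the anchors meet is not known. Promoters of Vmac, in the same anchor as Ndufa11, are not shown. Each is the RefSeq promoter of GRCm38.p6, 250 bases before to 50 bases after the annotated start, written 5′ to 3′ on the strand of the gene. Capitals mark GC boxes, GGGCGG or its complement CCGCCC. The first pair is Cish and Hemk1, the second Ndufa11 and Nrtn, and the third Cdk9 and Tor2a.
Cish (chr9:107296409-107296708, plus strand): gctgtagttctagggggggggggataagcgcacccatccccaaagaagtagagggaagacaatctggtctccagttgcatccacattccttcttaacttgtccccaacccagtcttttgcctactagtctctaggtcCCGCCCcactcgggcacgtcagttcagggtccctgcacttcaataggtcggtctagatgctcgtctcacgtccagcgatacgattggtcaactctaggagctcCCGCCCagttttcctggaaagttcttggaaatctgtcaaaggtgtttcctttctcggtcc
Hemk1 (chr9:107338301-107338600, minus strand): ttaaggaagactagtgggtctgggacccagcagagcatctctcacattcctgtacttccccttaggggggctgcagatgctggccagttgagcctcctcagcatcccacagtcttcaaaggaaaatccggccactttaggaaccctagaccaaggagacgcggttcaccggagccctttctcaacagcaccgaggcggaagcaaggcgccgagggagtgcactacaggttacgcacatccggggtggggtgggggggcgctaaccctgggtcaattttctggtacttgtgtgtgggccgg
Ndufa11 (chr17:56717512-56717811, plus strand): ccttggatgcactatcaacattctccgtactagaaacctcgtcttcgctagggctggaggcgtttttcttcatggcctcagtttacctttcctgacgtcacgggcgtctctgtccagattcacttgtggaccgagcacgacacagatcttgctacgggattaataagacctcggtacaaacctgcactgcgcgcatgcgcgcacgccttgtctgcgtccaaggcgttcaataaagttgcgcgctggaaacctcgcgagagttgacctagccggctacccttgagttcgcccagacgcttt
Nrtn (chr17:56757499-56757798, minus strand): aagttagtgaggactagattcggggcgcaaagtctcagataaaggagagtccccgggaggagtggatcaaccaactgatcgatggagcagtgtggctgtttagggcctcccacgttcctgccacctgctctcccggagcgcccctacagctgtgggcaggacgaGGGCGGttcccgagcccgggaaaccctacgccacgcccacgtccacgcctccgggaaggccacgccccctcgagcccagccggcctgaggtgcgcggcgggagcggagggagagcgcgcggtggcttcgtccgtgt
Cdk9 (chr2:32712735-32713034, minus strand): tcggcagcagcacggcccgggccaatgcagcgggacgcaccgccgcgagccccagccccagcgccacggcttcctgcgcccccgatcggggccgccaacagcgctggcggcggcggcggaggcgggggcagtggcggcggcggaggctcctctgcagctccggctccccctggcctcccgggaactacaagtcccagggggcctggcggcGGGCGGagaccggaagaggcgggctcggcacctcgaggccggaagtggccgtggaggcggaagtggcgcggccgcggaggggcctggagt
Tor2a (chr2:32756984-32757283, plus strand): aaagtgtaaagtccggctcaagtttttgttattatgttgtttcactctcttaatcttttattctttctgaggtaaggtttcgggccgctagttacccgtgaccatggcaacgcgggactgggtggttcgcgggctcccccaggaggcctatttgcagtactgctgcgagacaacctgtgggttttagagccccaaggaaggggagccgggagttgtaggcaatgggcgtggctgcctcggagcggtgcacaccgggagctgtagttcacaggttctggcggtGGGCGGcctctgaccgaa

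These promoters differ in base composition. GC content ran from 53.3% at Cish to 78.3% at Cdk9. The ratio of observed to expected CpG was 0.467 at Hemk1, 0.521 at Cish, 0.842 at Nrtn, 0.854 at Cdk9 and 1.14 at Ndufa11, against a median of 0.567 over 21263 promoters. GC boxes were found 2 times at Cish, once each at Nrtn, Cdk9 and Tor2a, and not at Hemk1 or Ndufa11. A Vmac promoter that is not shown, in the same anchor as Ndufa11, held 2. The promoter table matched 17492 of 21887 protein-coding genes (79.9%) and held none on chromosome 18, which therefore stays out of every count of starts.

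Cish, an inhibitor of JAK-STAT signalling, and Hemk1, a protein methyltransferase gene, lie on chromosome 9, in anchors 107295001 to 107300000 and 107335001 to 107340000. WT had 48 contacts against 8.89 expected, an enrichment of 5.40 (3.98 to 7.15). DKO had 51 against 8.48, an enrichment of 6.01 (4.48 to 7.90). Enrichment here means observed contacts over those expected from a donut-shaped area around the pixel. This was the strongest of the 9 in both libraries, and the intervals of the libraries overlap widely.

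On chromosome 17 the starts of Ndufa11, a subunit of respiratory complex I, and Vmac shared the anchor 56715001 to 56720000. The other anchor, 56755001 to 56760000, held the start of Nrtn, which encodes the growth factor neurturin. That pixel held 23 contacts in WT and 34 in DKO, an enrichment of 3.14 (1.99 to 4.72) and 5.01 (3.47 to 7.00). On chromosome 2 the start of Cdk9, the kinase that releases paused RNA polymerase II, lay in the anchor 32710001 to 32715000. That of Tor2a, a torsin ATPase gene, lay in the anchor 32755001 to 32760000. Here the order was the other way, with 39 contacts and 4.80 (3.41 to 6.56) in WT and 23 contacts and 3.08 (1.95 to 4.62) in DKO. The DKO/WT ratio of enrichment was 1.59 (0.912 to 2.83) at the first and 0.642 (0.366 to 1.10) at the second, so counting error alone covers a ratio of 1 at each.

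The other 6 joined Pdhb, a subunit of pyruvate dehydrogenase, to Kctd6; Cdc42ep2 to Pola2, a subunit of DNA polymerase alpha; Gm3336 to Rab3a, a GTPase of secretory vesicles; Dcxr to Hmga1b; Ythdf1, a reader of methylated RNA, to Arfgap1; and Prpsap1 to Sphk1, a sphingosine kinase. Cdc42ep2 and Pola2 had 47 contacts and 4.36 (3.20 to 5.79) in WT against 29 and 2.93 (1.96 to 4.20) in DKO. Pdhb and Kctd6 had 4.25 (2.72 to 6.33) and 3.55 (2.07 to 5.68). The remaining 4 lay between 2.66 and 3.17 in WT and between 2.97 and 3.56 in DKO. No pixel of the 9 had a DKO/WT interval without 1.

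**Figure D1:**
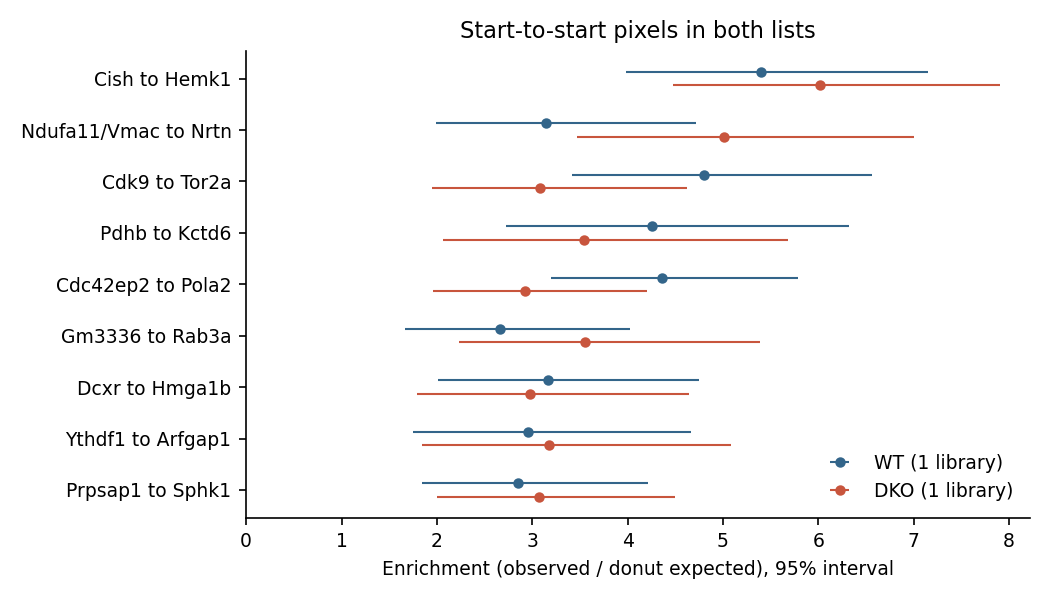
Enrichment (observed divided by donut expected contacts, no unit) of the 9 short pixels with a transcription start at both anchors in both lists, with 1 point per library and exact 95% intervals for counting error. Cish to Hemk1 is highest in both libraries (5.40 in WT, 6.01 in DKO), and the WT and DKO intervals overlap at all 9.

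Over each whole list, 31 of 632 short WT pixels outside chromosome 18 had a start at both anchors (4.91%, 3.36 to 6.89) and 52 of 687 DKO pixels (7.57%, 5.70 to 9.81). Over all pairs of 5 kb bins of the genome at the same spans the share was 0.331%. Gene-rich regions hold more starts, so the bin pairs were also weighted to the gene density of each list, which gave 1.54% for WT and 1.40% for DKO. Both lists stood above that, 3.18 times in WT and 5.41 times in DKO. Pixels of 50 to under 200 kb had 3.71% in WT and 5.10% in DKO, and pixels of 200 kb or more 1.08% and 1.76%. For these longer spans no share over bin pairs was computed, so the excess is not shown to be particular to short pixels.

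The DKO/WT ratio of these start-to-start counts was 1.68 (1.06 to 2.71), while 168 WT and 169 DKO pixels had a start at 1 anchor only (1.01, 0.808 to 1.25). It is 1 of 13 gene features compared without adjustment. At spans of 50 to under 200 kb the counts were 133 and 156 (1.17, 0.925 to 1.49). With a false discovery rate (FDR) under 0.01 in all 4 neighbourhoods of a pixel 13 WT and 21 DKO pixels were left (1.62, 0.772 to 3.51), and with starts allowed 1 bin from the anchor the ratio was 1.19 (0.924 to 1.55). The DKO count includes neighbouring pixels at Cish and a pixel whose starts both belong to C77080. With 1 pixel kept per group of neighbouring pixels the ratio was 1.48 (0.887 to 2.51). The interval excluded 1 as deposited and on autosomes alone, and included it under the 5 other settings tried.

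Of the start-to-start pixels 12 in WT (38.7%, 21.9 to 57.8) and 15 in DKO (28.8%, 17.1 to 43.1) had a pixel of the other list within 10 kb at both anchors. Over all short pixels the shares were 57.7% in WT, within that interval, and 52.2% in DKO, above it. Start-to-start pixels in DKO without a WT pixel within 10 kb included Adam17, a sheddase, with Ywhaq (25 contacts, enrichment 4.55). Another joined Krtcap2 and Trim46 with Efna1, an ephrin ligand (39, 3.30). Those in WT without a DKO pixel included Ppm1d, a phosphatase of the p53 response, with Bcas3 (24, 4.86), and Stat6 with Nemp1 (36, 3.46). These 4 were chosen after their values were seen. Nothing is recorded at bin pairs that were not called, so a pixel missing from a list may still have contacts there.

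An annotated end of a protein-coding gene, its first or last base, lay in both anchors of 80 short WT pixels (12.3%, 9.85 to 15.04) and 109 DKO pixels (15.4%, 12.8 to 18.3). Over all bin pairs the share was 1.16%, and at the same gene density 4.80% and 4.41%. At least 1 anchor held a gene end in 49.5% of WT (45.6 to 53.4) and 49.4% of DKO pixels (45.6 to 53.1), against 12.4% of all bin pairs and 32.1% and 30.4% at the same density. Gene ends were thus more frequent at short contacts in both libraries than gene density alone gave. At 50 to under 200 kb both anchors held a gene end in 7.27% of WT and 8.86% of DKO pixels. At least 1 anchor did in 40.1% and 39.8% of those. No comparison share was computed at those spans, so the excess is not shown to be particular to short pixels. The bin pairs include sequence in which no contact can be mapped, and how much that lowers their share was not tested.

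Promoters inside anchors were compared with all 21263 promoters, for GC boxes, for the TATA box TATAAA and for 2 forms of the CTCF core, AGGGGGC and AGGTGGC, on both strands. A GC box was in 61.5% of 252 promoters at short WT anchors and 59.9% of 304 at DKO anchors, against 46.2% of all. A TATA box was in 5.95% and 5.92%, against 12.6%. A CTCF core form was in 26.2% and 24.7%, against 18.2%. The median CpG ratio was 0.742 in WT and 0.791 in DKO, above the 0.567 of all promoters. Promoters at anchors of 50 to under 200 kb had 0.764 and 0.769. Of these promoters 65.6% in WT and 65.8% in DKO had a GC box, 6.43% and 6.33% a TATA box, and 26.8% and 24.7% a CTCF core form. The short pixels thus did not stand apart from longer ones in any of these. GC boxes and CTCF forms share letters with GC-rich sequence and are no independent measures, and a match is not a bound site.

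Both anchors lay in the body of 1 protein-coding gene at 122 short WT pixels (18.7%, 15.8 to 21.9) and 139 DKO pixels (19.7%, 16.8 to 22.8). Of all 21887 protein-coding genes 98 (0.448%) held both anchors of a WT pixel and 113 (0.516%) of a DKO pixel, 28 of them in both lists. All bin pairs at these spans gave 23.5% for the WT spans and 23.6% for the DKO spans, and at the same gene density 18.1% and 19.2%. Pixels inside 1 gene were therefore about as frequent as gene density gave, and below the share over all bin pairs. At longer spans the shares were 9.45% and 8.70% at 50 to under 200 kb and 3.67% and 2.49% at 200 kb or more. Fewer genes reach across a longer span, and bin pairs at those spans were not counted. The difference between the span classes is therefore not a result about short contacts.

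Both anchors lay in gene bodies, of the same or of different genes, at 326 of 652 short pixels in WT and 368 of 707 in DKO. In DKO they made up 52.1% (48.3 to 55.8), against 32.1% of all bin pairs. At the same gene density the shares were 43.2% for WT and 42.8% for DKO. Of these pixels 37.4% in WT (32.2 to 42.9) and 37.8% in DKO (32.8 to 42.9) had 1 gene over both anchors. Among all such bin pairs 73.2% did, and at the same gene density 41.9% for WT, within its interval, and 44.8% for DKO, above its interval. The gene that held both anchors had a median length of 75.04 kb (WT) or 84.9 kb (DKO), against 276 kb over bin pairs, and 14.8% and 19.1% were over 200 kb long, against 60.9%, a comparison not matched on gene density.

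**Figure D2:**
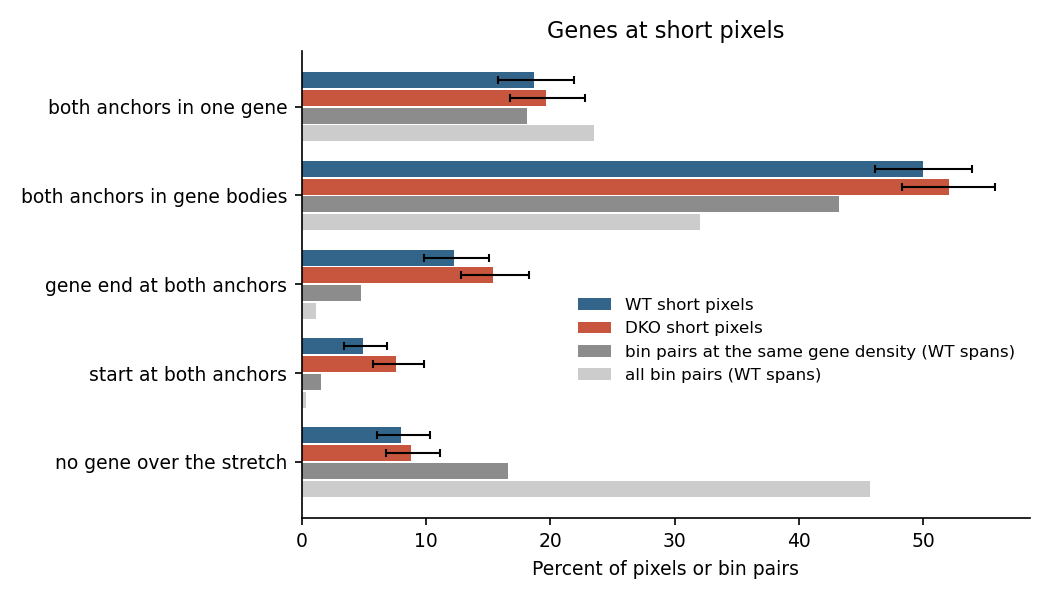
Percent of short pixels (WT blue, DKO red, with exact 95% intervals) and of pairs of 5 kb bins (dark grey, weighted to the gene density of the WT list; light grey, all) with each gene feature. Both anchors in 1 gene was as frequent as at the same gene density (18.7% and 19.7% against 18.1%), whereas gene ends at both anchors (12.3% and 15.4% against 4.80%) and starts at both (4.91% and 7.57% against 1.54%) were above it.

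Osbpl5, a lipid transfer protein gene of 68.2 kb on chromosome 7 (143688762 to 143757008), had the most pixels inside 1 gene over both lists together, 4 in WT and 5 in DKO. In WT Slc43a2 and Gnptab also had 4. Its highest DKO pixel, 143705001 to 143710000 with 143745001 to 143750000, held 53 contacts in DKO and 43 in WT, an enrichment of 6.71 (5.02 to 8.77) and 5.25 (3.80 to 7.07). The 45 kb pixel of the same first anchor held 44 and 52 contacts, 5.01 and 5.27. These neighbouring pixels belong to 1 patch of 10 pixels in WT and 11 in DKO, so they are not separate contacts.

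Coro7, a coronin, on chromosome 16 (4626884 to 4679720) had 3 WT and 4 DKO pixels. The highest held 42 contacts in WT (5.06, 3.65 to 6.84) and 44 in DKO (5.29, 3.84 to 7.10). Pxn, which encodes the focal adhesion adaptor paxillin, had 3 and 4 pixels between 2.81 and 3.96 in WT and between 2.98 and 3.98 in DKO. Slc43a2, an amino acid transporter, had 4 WT pixels, up to 42 contacts and 4.80, and 2 DKO pixels, up to 25 contacts and 3.53. Tbc1d2, a Rab GTPase-activating protein, had 3 and 2, up to 5.20 (41 contacts) in WT and 3.95 (21 contacts) in DKO, at different pixels. Every short pixel of these 5 genes had a counterpart within 10 kb at both anchors in the other list.

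Gnptab, which makes the mannose 6-phosphate tag of lysosomal enzymes, had 4 pixels in WT, from 17 to 24 contacts and 3.48 to 4.81, and none under 50 kb in DKO. For 3 of the 4 a DKO pixel lay within 10 kb at both anchors. Just past the span limit, at 50 kb, both lists held a pixel in Gnptab, with 32 contacts and 5.86 in WT and 18 and 3.52 in DKO. Aopep, an aminopeptidase gene of 361 kb, had 3 DKO pixels of 15 to 19 contacts and 2.64 to 3.24, and none in WT within 10 kb. Their largest FDRs were 0.0839, 0.0896 and 0.0857, near the ceiling of 0.1. The other genes with most such pixels were 2900026A02Rik (3 in WT, 2 in DKO) and Rgs12, a regulator of G protein signalling, with 2 each, at most 2.74 in WT and 4.24 in DKO.

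Pixels that joined both ends of 1 gene were few, 4 in WT and 5 in DKO, chosen here by that feature. Slc36a1, a proton-coupled amino acid transporter, was in both lists with 20 contacts and 3.89 (2.38 to 6.01) in WT and 18 and 3.25 (1.92 to 5.13) in DKO. The others in WT were Socs7, Rara, the retinoic acid receptor alpha, and Dgcr8, the partner of Drosha, between 3.36 and 3.60. In DKO they were Vps26a, Hoxb3, Ptp4a3 and Ipo7, between 2.90 and 3.16. Among these, the Socs7 and Hoxb3 pixels had a pixel of the other list within 10 kb at both anchors, and the rest had none. Pixels that joined both ends of 1 gene made up 0.613% of WT pixels (0.167 to 1.56) and 0.707% of DKO pixels (0.230 to 1.64). All bin pairs gave 0.120%, and at the same gene density 0.255% for WT and 0.248% for DKO, which the intervals include.

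The short pixels lay in gene-rich regions. The median was 23 protein-coding genes in the surrounding 1 Mb in WT (quartiles 13 and 35, interval of the median 21 to 24) and 19 in DKO (11 and 33, 18 to 21). The median was 16 at pixels of 50 to under 200 kb and 9 at those of 200 kb or more in both lists, and 5 over all 5 kb bins. Only 7.98% of short WT pixels (6.01 to 10.3) and 8.77% of DKO pixels (6.79 to 11.1) had no gene anywhere between the outer edges of the anchors, against 45.7% of bin pairs.

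Density differed among the members. Pixels inside 1 gene had a median of 15 genes per Mb in WT and 14 in DKO, pixels with starts at both anchors 28 in both. Members with a counterpart in the other list had 24 in both lists, and those without 16 in WT and 14 in DKO. Those without numbered 276 in WT and 338 in DKO, and members with a counterpart are largely the same loci in both lists. At an FDR under 0.01 the medians were 24 in WT (23 to 26) and 22 in DKO (20 to 24).

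By chromosome, short pixels were densest on 19, with 75.9 per 100 Mb in WT and 65.6 in DKO, and on 11, with 64.8 and 59.1. The X chromosome had 6 in each list, 3.52 per 100 Mb, and Y had none. Over 20 chromosomes their number per Mb went with genes per Mb, with Pearson r = 0.805 and Spearman rho = 0.777 in WT and 0.837 and 0.857 in DKO, given as a description, since chromosomes of 1 library share their depth. Chromosome 11 carries Foxn1, Slc36a1 and Socs7, chromosome 19 Cdc42ep2 and Pola2.

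The WT list held 254 pixels at 35 kb and 203 at 45 kb, and the DKO list 275 and 210. At 40 kb DKO had 222, a DKO/WT ratio of 1.14 (0.935 to 1.39). Just outside the limit, at 50 kb, they held 191 and 189. The DKO/WT ratio was 1.08 for short pixels (0.974 to 1.21), 0.851 at 50 to under 200 kb (0.812 to 0.893) and 0.694 at 200 kb or more (0.640 to 0.753). The short interval included 1 and the longer ones did not. Short pixels made up 11.2% of the WT list (10.4 to 12.1) and 14.5% of the DKO list (13.5 to 15.5). At an FDR under 0.01 the counts were 242 and 222, a ratio of 0.917 (0.761 to 1.11), so the order of the short counts turned with the cut-off.

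**Figure D3:**
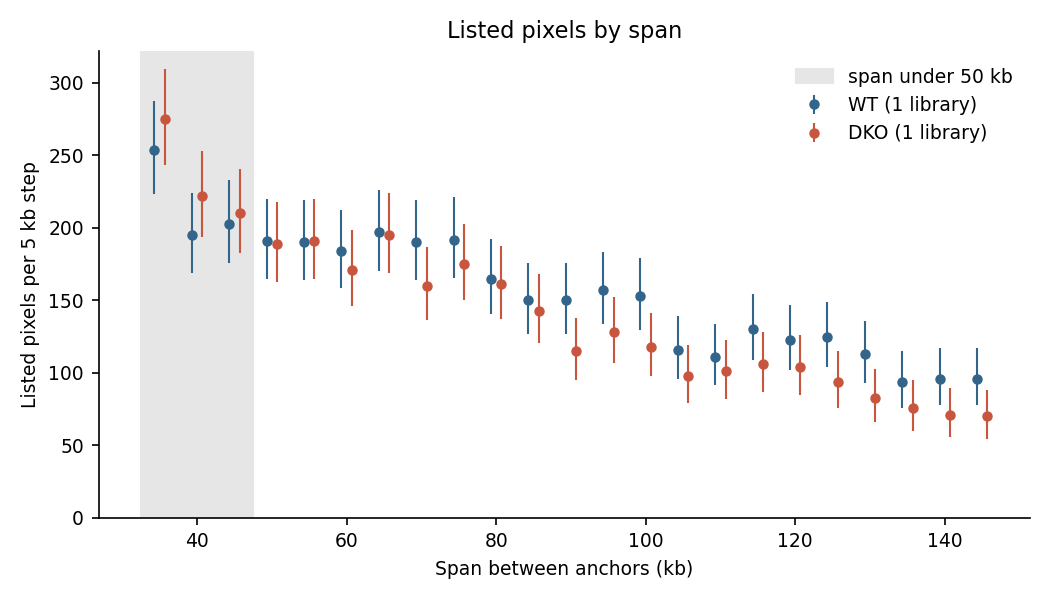
Number of listed pixels (vertical axis) at each span in 5 kb steps from 35 to 145 kb (horizontal axis, kb), for the WT and the DKO library, with exact 95% Poisson intervals; the shaded steps are the short pixels. DKO has more pixels at 35 kb (275 against 254), at 40 kb (ratio 1.14) and at 45 kb (210 against 203), with overlapping intervals, and at 50 kb the lists hold 191 and 189.

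Enrichment of the short pixels was below that of longer ones and close in the libraries. The median was 3.42 in WT (quartiles 2.98 and 4.01) and 3.43 in DKO (3.03 and 3.95), against 4.94 and 4.87 at 50 to under 200 kb and 6.35 and 6.45 at 200 kb or more. It rose with span within the set, from 3.18 and 3.24 at 35 kb over 3.51 and 3.45 at 40 kb to 3.63 and 3.66 at 45 kb, and was 3.89 and 3.83 at 50 kb. The median observed count was 22 in WT and 21 in DKO, on medians of 6.56 and 6.31 expected contacts. At 50 to under 200 kb the medians were 3.86 and 3.84 expected contacts.

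A higher expected count leaves less room for a high ratio, and a pixel is listed only above a least observed count, which was 19 in both lists where 6.24 to 7.83 contacts were expected. Within classes of equal donut expected count, short pixels had the lower median enrichment in 7 of 7 WT classes. It was 0.837 to 0.893 of the value at 50 to under 200 kb. In DKO it was lower in 6 of 7 classes, at 0.831 to 1.02. The exception was the class of lowest expected count among them, with 11 short DKO pixels. The classes match the donut alone, while each pixel has an FDR for all 4 neighbourhoods. In WT the horizontal and vertical expected counts had medians of 1.02 and 1.03 times the donut count at short pixels. At 50 to under 200 kb they had 1.18 and 1.19. DKO had 1.04 and 1.03 at short pixels and 1.17 and 1.18 at the longer ones. The part of this in the lower ratios was not tested.

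**Figure D4:**
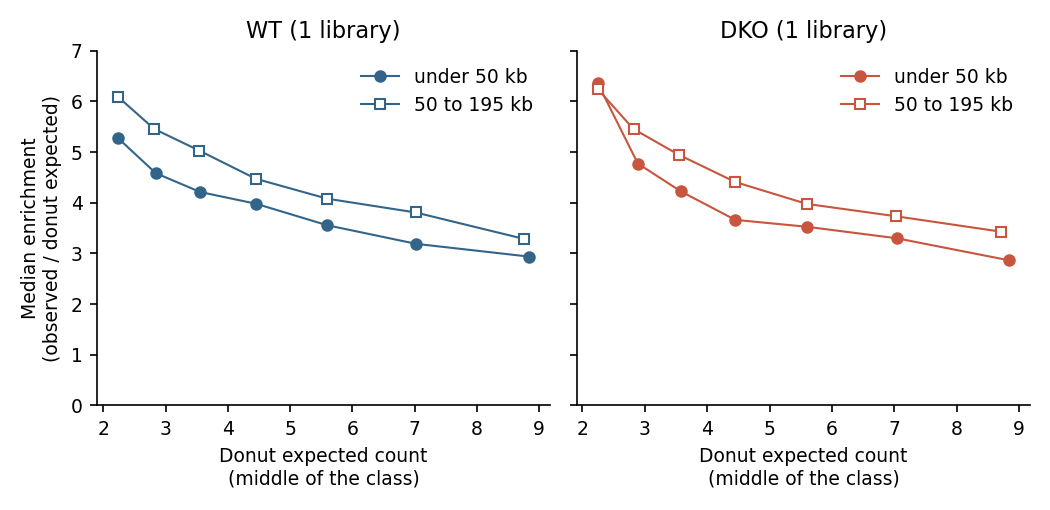
Median enrichment (vertical axis, observed divided by donut expected contacts) of short pixels (filled) and pixels of 50 to under 200 kb (open) against the donut expected count (horizontal axis, contacts, middle of the class), in the 7 classes with at least 10 pixels of each. The filled points lie below the open ones in all 7 WT classes and 6 of 7 DKO classes.

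Enrichment hardly differed with position relative to genes. Pixels inside 1 gene had a median of 3.35 in WT (interval 3.24 to 3.58) and 3.33 in DKO (3.21 to 3.44), pixels without a gene at either anchor 3.64 (3.39 to 3.98) and 3.54 (3.37 to 3.66). Pixels with a start at both anchors had 3.46 and 3.37. Members with a counterpart in the other list had 3.58 in WT and 3.54 in DKO, those without 3.25 and 3.34.

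A few members stood far above the rest on nearly empty surroundings. In 5 WT and 8 DKO pixels the donut expected count was under 1 and the bottom-left expected count was 0. All 5 in WT lay inside 1 gene (Efcab7, Jakmip3, Muc2 and Ranbp3l), with 12 to 26 contacts and an enrichment of 21.9 to 55.7. In DKO 6 of 8 lay inside 1 gene (D5Ertd579e, Efcab7 and Muc2), with 21.5 to 48.9 over all 8. All other members reached at most 9.40 in WT and 12.7 in DKO. Muc2, a gel-forming mucin of the gut, had 26 contacts in WT and 21 in DKO on 0.466 and 0.522 expected. Efcab7, a protein of the primary cilium, had 14 in both libraries at its 40 kb pixel on 0.341 and 0.343 expected. With expected counts of this size the ratio rests on a fraction of 1 contact in the denominator.

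Of the short pixels 376 in WT (57.7%, 53.8 to 61.5) and 369 in DKO (52.2%, 48.4 to 55.9) had a pixel of the other list within 2 bins, 10 kb, at both anchors. At 50 to under 200 kb the shares were 72.0% and 73.9%, above the short ones. At 200 kb or more they were 60.9% in WT, within the interval of the short pixels, and 72.6% in DKO. At exactly the same bins the shares at 200 kb or more were 27.1% in WT and 39.04% in DKO. Among the short pixels the shares within 10 kb were lower inside 1 gene, 42.6% (33.7 to 51.9) and 37.4% (29.4 to 46.0), than with 1 anchor in a gene, 66.5% (60.1 to 72.5) and 64.9% (58.5 to 70.9). Single pixels with no neighbour in their own list made up 46.0% of short WT pixels and 46.4% of DKO pixels, against 24.99% and 30.1% at 50 to under 200 kb. Of these 25.3% and 20.4% had a counterpart, against 85.2% and 79.7% of pixels in larger patches, which have more chances to match.

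Anchors of short pixels often lay near anchors of longer pixels. Longer pixels of the same patch were counted too, and in Osbpl5 each list held 3 longer pixels, from 50 kb on. Sharing with separate longer contacts was therefore not tested. The bin pairs given here were not matched on gene density. An anchor lay within 1 bin of an anchor of a pixel of 50 kb or more in 44.6% of WT (40.8 to 48.5) and 42.0% of DKO members (38.3 to 45.7), against 6.02% and 5.24% of bin pairs. Among members without a counterpart, 23.6% in WT (18.7 to 29.0) and 26.9% in DKO (22.3 to 32.0) had an anchor within 1 bin of some anchor of the other list, against 5.93% and 6.63% of bin pairs.

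At the 199 short pixels listed at exactly the same bins in both libraries, 30.5% of the WT and 28.1% of the DKO members, the median log2 ratio of DKO to WT enrichment was -0.02 (-0.05 to 0.03), and 96 were higher in DKO. Past a fold of 1.5 lay 8 upward (4.02%), against 3.56% of the 1940 pixels of all spans in both lists, and 3 downward (1.51%), against 5.26%. The interval of the ratio excluded 1 at 2 of 199 (1.01%), against 31 of 1940 (1.60%) over all spans. Only pixels called in both libraries enter here, so pixels that differ more may be left out. The expected counts, which follow depth, had a median DKO/WT ratio of 0.985.

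The highest DKO/WT ratio was 1.78 (0.973 to 3.36), at a pixel on chromosome 18 with no gene end in its anchors (11005001 to 11010000 and 11040001 to 11045000), with 18 contacts in WT and 33 in DKO. Next came a pixel at ends of Cmtm5 and Myh6, a cardiac myosin gene, on chromosome 14 (22 and 27 contacts, 1.63, 0.893 to 3.00) and 1 without a gene end on chromosome 1 starting at 132120001 (31 and 48, 1.61, 1.01 to 2.62). Lmna, which encodes lamins A and C, followed with 23 and 37 contacts, 3.76 in WT and 6.01 in DKO (1.60, 0.925 to 2.82), and then the Ndufa11 and Nrtn pixel.

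The lowest ratio was 0.551 (0.310 to 0.960), on chromosome 19 between 47120001 to 47125000 and 47165001 to 47170000, without a gene end, with 37 contacts in WT and 22 in DKO. The Cdk9 and Tor2a pixel was next, and then Fosb, a subunit of the AP-1 transcription factor, with Ercc1, a DNA repair endonuclease gene, on chromosome 7 (35 and 22 contacts, 0.658, 0.368 to 1.15). The Cdc42ep2 and Pola2 pixel followed with 0.672 (0.408 to 1.09), and a pixel without a gene end on chromosome 9 starting at 124260001 with 17 and 13 contacts (0.676, 0.302 to 1.48). These 10 were picked as the extremes of 199, a choice that the intervals leave out of account.

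**Figure D5:**
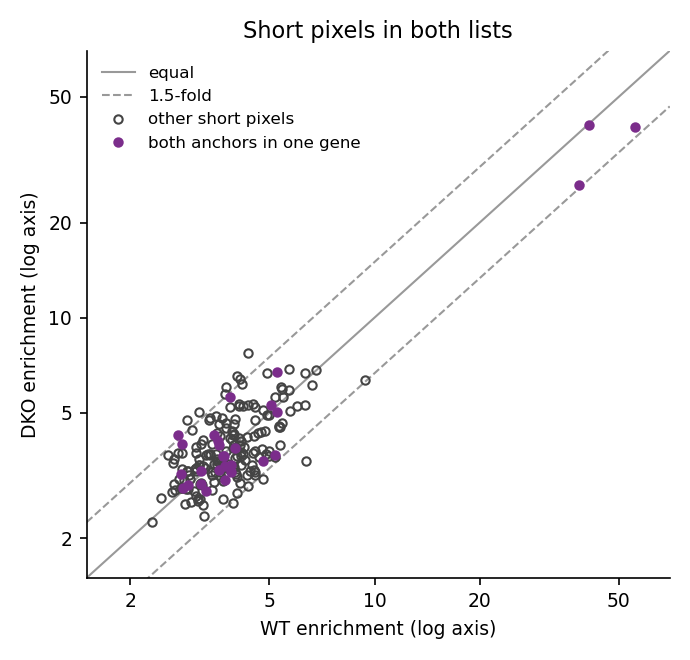
Enrichment (observed divided by donut expected contacts, log axes) in WT (horizontal) and DKO (vertical) of the 199 short pixels listed in both libraries, 1 point per pixel, filled where both anchors lie in 1 gene. The points scatter around the line of equality (median log2 ratio -0.02), and the 3 filled points above 20 in both libraries are the Efcab7 and Muc2 pixels with under 1 expected contact.

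Members without any pixel of the other list within 10 kb were ranked by enrichment among those with at least 1 expected contact. In WT Impg1, a matrix gene of the retina, led with 18 contacts and 8.66 (5.13 to 13.7), then H60b, a ligand of a natural killer cell receptor, with 20 and 6.26 (3.82 to 9.67). The other 6 of the first 8 in WT had no gene end in their anchors, 11 to 14 contacts and 5.27 to 5.93. In DKO D5Ertd579e led with 13 contacts on 1.02 expected, 12.7 (6.77 to 21.7). Others among the first 8 were a pixel without a gene end on chromosome 2 (18, 8.42), G6pd2 (16, 7.88), Robo1, an axon guidance receptor (16, 7.84), Fbxl7 (13, 7.35) and Vmn2r60, a pheromone receptor gene (12, 7.03). All 8 leading WT pixels were single pixels, and expected counts were 3.20 at most in WT and 2.14 in DKO, under the medians of 6.56 and 6.31.

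Of 21887 protein-coding genes 677 (3.09%) overlapped an anchor of a short WT pixel and 739 (3.38%) of a DKO pixel, 283 in both lists. Tet2, Tet3 and Krt14 were at none. Of 33 hair follicle transcription factors 3 were at short pixels, and each in both libraries. Foxn1, the forkhead factor needed for hair shaft formation, had 4 pixels in each list on chromosome 11. The highest, 78355001 to 78360000 with 78400001 to 78405000, held 36 contacts in both, 5.48 (3.84 to 7.59) in WT and 5.59 (3.91 to 7.74) in DKO, and its first anchor held an end of Foxn1. Cux1 had 22 contacts and 4.15 in WT and 17 and 4.08 in DKO, and Ovol1, an epithelial zinc finger repressor, 25 and 2.45 and 27 and 2.68. At all 3 the intervals of the libraries overlapped.

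Of 36 genes of BMP, hedgehog, NOTCH, FGF and ectodysplasin signalling 2 were at short WT pixels and 6 at DKO pixels. Of all protein-coding genes it was 3.09% and 3.38%. Id1, a BMP target, was at short pixels of both lists. The pixel 152700001 to 152705000 with 152735001 to 152740000 on chromosome 2, in both lists, held 32 contacts in WT (2.88) and 25 in DKO (2.56). The BMP receptor Bmpr1a (24 contacts, 3.62), Notch1 (23, 2.44) and Notch3 (19, 3.43), with Smad6 and Smo, were in the DKO list only. The Notch1 contact had a WT pixel within 10 kb, at slightly shifted bins. By gene body, none of the 36 listed WNT pathway genes was at a short pixel, and none of 19 hair and 16 epidermal keratins, in either list. An annotated start of the WNT ligand gene Wnt6 did lie in an anchor of a short WT pixel on chromosome 1 (27 contacts, 2.70). That pixel had a DKO pixel within 10 kb at both anchors. Of all protein-coding genes 5.18% were in either list, so few would be at that share in lists of this size.

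Of 26 actin, integrin and basement membrane genes 5 were at short pixels in each library, 7 in either, and 4 in each held both anchors. Of all protein-coding genes 3.09% and 3.38% were at short pixels, 5.18% in either list, and 0.448% and 0.516% held both anchors. Ctnnd1, which encodes p120 catenin, had 1 WT and 3 DKO pixels, up to 20 contacts and 2.91 and 24 and 3.26. Plec, the plectin gene, had 1 and 2, and the pixel in both lists held 36 contacts in WT (3.74) and 28 in DKO (3.06). Cdh1, which encodes E-cadherin, had 2 in DKO alone (up to 27 contacts, 2.94), and Lama5, a laminin chain, 2 in WT alone (26, 3.34). These genes are long, 66.9 kb for Cdh1 and 71.9 kb for Ctnnd1, and the part of length in the count was not tested.

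The other lists had few members at short pixels, beside 5.18% of all protein-coding genes in either library. Of 33 terminal differentiation genes S100a3, a hair cuticle protein, was in both lists (28 contacts and 3.69 in WT, 26 and 3.04 in DKO) and Jup, plakoglobin, in WT (22, 2.79). Of 22 DNA methylation genes Mbd2, a reader of methylated CpG, was in both (31 and 4.14, 28 and 3.76) and Idh1 in WT (18, 2.98). Of 29 proliferation genes the replication factor Mcm5 was in both (26 and 3.96, 32 and 4.62) and Cdkn1a, the inhibitor p21, in WT (24, 3.36). Of 20 CTCF and cohesin genes Yy1 was in DKO (24, 3.45). Among 37 ribosomal protein genes Rpl19 was in both lists, Rpl13a in WT and Rps9 in DKO. Of 28 chromatin genes Ezh1 was in both, with 3 WT pixels and 1 in DKO, Arid1b in WT, and Smarca4 in DKO.

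Hi-C counts contacts and not transcripts, so the labelled cell type cannot be checked by marker levels. Of 9 hair matrix markers found Foxn1 was at short pixels in both libraries. For other cells the counts are from longer gene lists than that marker set. None of 10 melanocyte and none of 17 immune, endothelial and nerve genes was at a short pixel. Of 16 dermal genes Col1a1 was in both libraries (23 contacts and 2.56 in WT, 28 and 3.68 in DKO). Of all protein-coding genes 5.18% were at a short pixel in either list, and no cell type is read from these few markers.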

How the data were processed

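Hi-C contacts of 2 libraries, 1 WT and 1 Tet2/3 DKO, were taken from the deposited lists of enriched pixels. Per the labels' protocols, sorted cells were crosslinked with 2% formaldehyde, and the Arima kit was used. Pixels were listed by juicer_tools 1.22.01, per the file headers. The build was GRCm38 (mm10), per the submitters' processing notes. No depth, read filter or aligner is stated in the sources used here.

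The deposited observed values are whole-number contact counts. The authors also deposited a signal, the contacts expected from each of 4 neighbourhoods in the unit of the counts, and a score giving the number of the expected-count class. Their deposited q-values (FDR) were all under 0.1. All listed pixels with a span under 50 kb were used, and every member was kept. Enrichment is observed over donut expected counts.

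Genes and promoters came from RefSeq tables of GRCm38.p6, and coordinates are 1-based. All pairs of 5 kb bins between the first and last gene of each chromosome served as the comparison, counted exhaustively and weighted to the spans of the list, and also to its gene density in 7 classes. Patches of pixels were joined where both anchors lay within 20 kb. Intervals are exact: Poisson for counts, conditional binomial for ratios with expected counts taken as fixed, Clopper-Pearson for shares and order statistics for medians.

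The members and gene lists were chosen with earlier results of these data known, and the comparison at equal gene density, start-to-start counts and their alternatives after values were seen. Genes named were the 10 pixels inside 1 gene in both lists of highest mean enrichment with at least 20 contacts, the 8 highest without a counterpart per list, the 5 highest and 5 lowest DKO/WT ratios, the 10 genes with most pixels over both anchors, up to 4 members per gene list, and Tet2, Tet3 and Krt14. Others were chosen after their values were seen. A few genes that this rule names are not reported here. The code was checked on planted pixels and simulated counts. Python 3.11.15, pandas 2.3.3, numpy 2.4.6 and SciPy 1.17.1 were used.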

Additional observations from a re-analysis of the deposited data

How the results depend on the processing

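There were 127 recomputed values over 18 alternative settings; 67 stayed within the interval of the reported value, or for counts within 1.5 times it, and 60 moved outside. At an FDR under 0.01 the lists held 242 short pixels in WT and 222 in DKO (ratio 0.917), 9.68% and 11.04% of the lists, with median enrichment 3.96 and 3.98. Counterparts rose to 68.2% and 64.4%, the one-gene share was 15.7% in WT, and DKO had 22 genes per Mb and gene ends at 53.2%. With at least 20 contacts there were 433 and 445 (18.6% and 23.4% of the lists), one-gene shares of 15.7% and 16.6%, gene ends at 54.97% and 53.3%, counterparts at 66.3% and 61.3%, and 23 genes per Mb in DKO. With 1 pixel per patch there were 405 and 455 (13.96% and 17.2%), with counterparts at 38.0% and 34.5%, 19 genes per Mb in WT and a one-gene share of 22.9% in DKO. Under 40 kb, 4.37% and 5.64% of the lists remained, with median enrichment 3.18 and 3.24 and a one-gene share of 22.9% in DKO. Median enrichment was 3.34 and 3.28 over horizontal, 3.29 and 3.34 over vertical and 3.01 and 2.99 over the largest expected counts. The median log2 DKO/WT ratio was -0.075 over horizontal counts, with an interval of -0.116 to -0.023, the one setting in which it left out 0. With all annotated genes density was 38 and 35 genes per Mb and gene ends were at 63.3% and 62.2%. With whole bins inside the gene the one-gene share was 11.8% and 14.003%. Windows of 200 kb held 6 and 5 genes. Gene ends within 5 kb were at 76.1% and 77.4%. Counterparts were 30.5% and 28.1% at the exact pixel, 53.1% and 48.4% within 1 bin and, in DKO, 56.4% within 5 bins. Starts within 1 bin of both anchors were at 17.9% and 19.7%.

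No paired analysis was possible because a single library stands for each genotype, and leaving out a replicate did not apply. Short pixels rest on 10 to 65 contacts each. The DKO/WT interval excluded 1 at 2 of 199 short pixels called in both lists (1.01%), against 1.60% of such pixels over all spans.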
